A study of Mus musculus with 4 samples.

Results

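Interleukin-10 (IL-10) is the cytokine with which activated macrophages restrain their own inflammatory output. The group described here holds the gene of the cytokine, the genes of both chains of its receptor, and 7 genes that act after the receptor, drive Il10 transcription or belong to neighbouring anti-inflammatory pathways. It comprised 10 genes, chosen by symbol: Il10, Il10ra, Il10rb, Nfil3, Sbno2, Etv3, Bcl3, Maf, Il4ra and Tgfb1. Every probe whose accession belongs to one of them was taken, which gave 11 probes of the 39429 on the array, and all 10 genes were among the 23567 genes or accessions tested. Il4ra had 2 probes and the other genes 1 each.

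The samples were mouse bone marrow-derived macrophages of Cdk5r1 knockout and wildtype males aged 6 weeks, both listed under the strain B6.129S4-Cdk5r1tm1Lht/J. Marrow cells of both genotypes were grown for 7 days with GM-CSF, a myeloid growth factor, at 25 ng/ml. They were then stimulated with Escherichia coli lipopolysaccharide (LPS), a bacterial cell wall component, at 100 ng/ml for 6 hours, or left at basal state. Cdk5r1 is the gene of p35, a protein that switches on the kinase CDK5, and the study asked how its loss changes macrophage gene expression at rest and after LPS. There were 4 two-colour arrays, 2 LPS and 2 basal, each with knockout RNA in Cy5 and wildtype RNA in Cy3. The labels call the 2 arrays of a condition biological replicates without naming animals, so the p-values measure the spread between these samples. Dyes were never swapped. A dye effect of a probe can therefore not be told apart from genotype in a knockout over wildtype ratio. A constant one cancels within a channel, and between conditions where the probe has signal in both. Il10 was not well above background at basal state, so a dye effect can remain in its difference between conditions.

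The median spot intensity was 116 to 145.5 in the knockout channel and 76 to 97.5 in the wildtype channel, over median backgrounds of 46 to 48 and 25 to 27. No probe spot was saturated. Cdk5r1 had log2 ratios of knockout over wildtype of -2.55 and -2.29 on the LPS arrays and -0.37 and -0.59 on the basal arrays, with signal left in the knockout channel, and whether its probes lie in the deleted part is not known here. Of 7 macrophage markers 6 were tested, and all 6 were well above background in both genotypes and conditions. Their summed level (linear normalised intensity) was 83569 to 113714 in knockout LPS and 100115 to 114156 in wildtype LPS samples, against 187111 to 228772 in knockout basal and 186596 to 188826 in wildtype basal samples. Of 6 dendritic cell markers 5 were tested, all 5 well above background. Their sums were 171295 to 198849 in knockout LPS and 146357 to 156947 in wildtype LPS samples. In basal samples the sums were 9643 to 14126 in knockout and 14447 to 14932 in wildtype. Dpp4 was the 1 of these 5 higher in the knockout under LPS (1.26 ± 0.12, limma adjusted p = 0.0020), against 7.17% of all genes. Median centring called 4 of the 5 higher under LPS and 1 at basal state. Granulocyte markers moved with genotype, though not all of them. Camp, Ltf, Ngp, S100a8 and S100a9, 5 of the 7 tested, were lower in the knockout in each condition. Of all genes 5.23% were lower under LPS and 1.5% at basal state. Mpo and Elane did not pass, and with median centring 1 of the granulocyte markers was higher under LPS. Over the 7 of 8 tested, their summed level was 91954 to 96206 in knockout LPS samples, against 269581 to 294471 in wildtype LPS samples, and 48708 to 78972 in knockout basal samples, against 106340 to 169363 in wildtype basal samples. For 4 eosinophil and mast cell markers the sums were 4851 to 6253 in knockout LPS samples and 11899 to 18137 in wildtype LPS samples. Their members went opposite ways: under LPS the eosinophil genes Epx (-1.69 ± 0.18) and Prg2 (-1.596 ± 0.16) were lower in the knockout and the mast cell gene Cpa3 was higher (0.57 ± 0.14, limma adjusted p = 0.046), and at basal state Cpa3 (0.81 ± 0.14) and Mcpt8 (0.73 ± 0.13) were higher. The part of these cells in the results on the 10 genes was not tested. The cultures are bulk samples, in which fewer cells of a type and less RNA per cell cannot be told apart.

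IL-10 binds a receptor of a ligand-binding chain, IL10RA, and a shared chain, IL10RB, which carry the kinases JAK1 and TYK2. These activate the transcription factor STAT3, which induces further regulators. Bcl3, Nfil3, Etv3 and Sbno2 are among the genes that IL-10 induces in macrophages, and each has been tied to lower output of inflammatory genes. In macrophages LPS itself starts Il10 transcription, so ligand and targets can rise in the same culture.

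Promoter windows were available from RefSeq (GRCm38.p6) for 6 of the 10 genes, as 8 windows of 300 bases that run from 250 before to 50 after an annotated start. Windows of Sbno2 and Nfil3 are shown because Sbno2 windows held the STAT-type palindrome and because Nfil3 was the gene other than Il10 whose ratio passed the test under LPS. Capitals mark matches to TTCNNNGAA, the palindrome bound by STAT proteins, or to TGACG, the core of cyclic AMP response elements, on either strand.
Sbno2, chr10:80102653-80102952, minus strand: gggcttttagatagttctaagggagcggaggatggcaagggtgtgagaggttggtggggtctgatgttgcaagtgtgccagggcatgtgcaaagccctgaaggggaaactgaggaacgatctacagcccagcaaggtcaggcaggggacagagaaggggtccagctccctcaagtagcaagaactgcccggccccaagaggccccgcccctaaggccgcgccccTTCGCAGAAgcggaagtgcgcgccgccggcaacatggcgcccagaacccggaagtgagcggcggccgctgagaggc
Sbno2, chr10:80101138-80101437, minus strand: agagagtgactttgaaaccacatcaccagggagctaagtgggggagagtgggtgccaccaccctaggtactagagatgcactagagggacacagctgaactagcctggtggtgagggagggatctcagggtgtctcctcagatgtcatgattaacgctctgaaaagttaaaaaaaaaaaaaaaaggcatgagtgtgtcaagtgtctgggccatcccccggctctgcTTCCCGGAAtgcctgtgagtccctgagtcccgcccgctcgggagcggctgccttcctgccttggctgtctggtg
Nfil3, chr13:52980990-52981289, minus strand: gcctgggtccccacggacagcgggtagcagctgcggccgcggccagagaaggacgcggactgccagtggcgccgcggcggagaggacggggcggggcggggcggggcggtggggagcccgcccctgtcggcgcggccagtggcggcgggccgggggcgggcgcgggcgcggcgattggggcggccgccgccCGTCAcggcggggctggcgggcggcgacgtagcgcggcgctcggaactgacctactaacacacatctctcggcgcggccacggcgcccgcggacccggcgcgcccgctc

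In the Sbno2 windows the palindrome began at -26 and at -24 from the annotated starts, and the third Sbno2 window had no match. It was in 2 of the 8 windows of the group, against 8.30% of 32851 windows of all genes. TGACG began at -59 in the Nfil3 window and at -16 in the Etv3 window, and 20.8% of all windows held it. The GC box GGGCGG was in 8 of 8 windows (35.7% of all windows) and an NF-kappaB-type pattern of 3 G and 2 C around 5 open bases in 7 of 8 (50.8%). The other motifs searched had no match in the 8 windows. They were the MAF site core TGCTGA (19.5% of all windows), the full cyclic AMP element TGACGTCA, which overlaps its core (1.79%), and the AP-1 site TGANTCA (7.81%). The TATA box TATAAA was in 13.6% of all windows and the NFIL3 site TTATGTAA in 0.938%. Both strands were searched. A match describes letters and is not a bound site, and no match says only that these letters are not in the window.

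**Figure D1:**
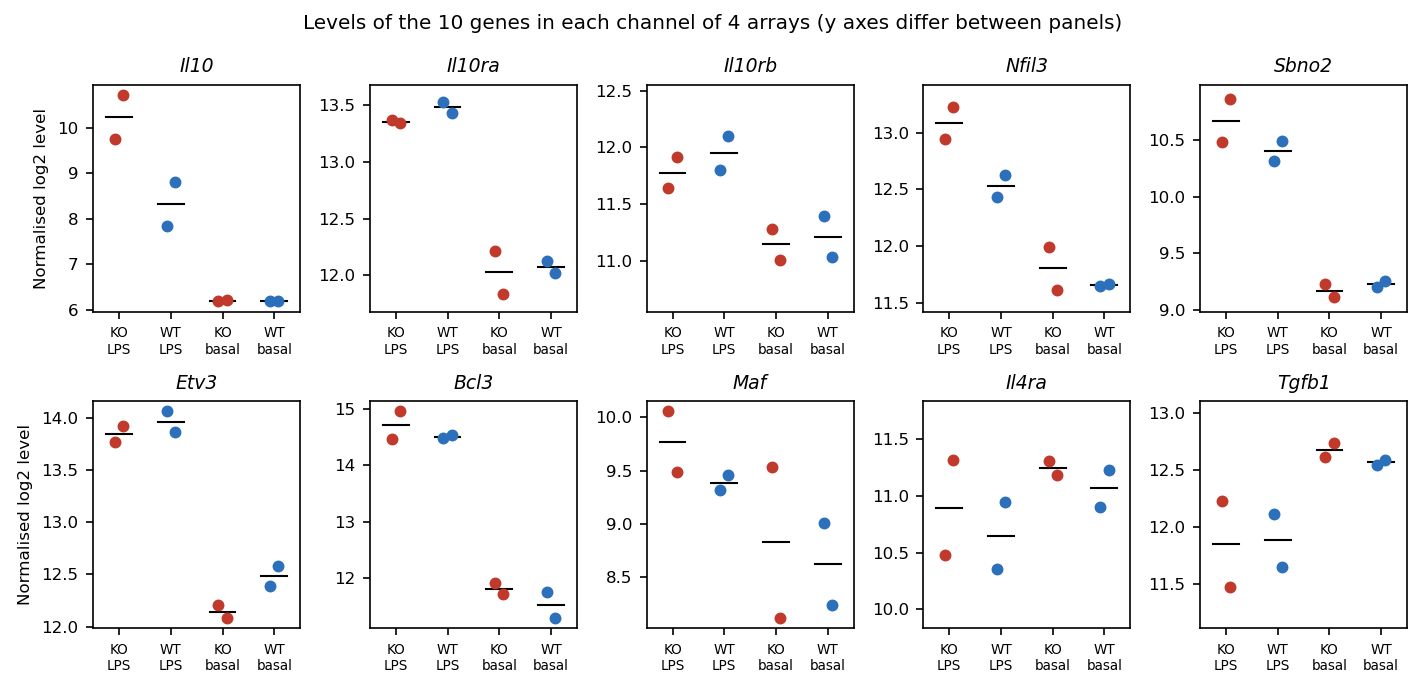
Normalised log2 level (y axis, a scale of its own per panel) of the 10 genes in knockout LPS (KO LPS), wildtype LPS (WT LPS), knockout basal and wildtype basal samples; points are the 2 arrays of each group and the line is their mean. Il10 separates knockout from wildtype under LPS, while most other genes separate LPS from basal in both genotypes alike.

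Il10, the ligand, was the member that differed most between genotypes, and the difference appeared under LPS. Its normalised level (log2) was 9.74 and 10.72 in knockout LPS samples, against 7.84 and 8.81 in wildtype LPS samples. In basal samples it was 6.19 and 6.21 in knockout and 6.19 and 6.19 in wildtype, where the probe was not well above background in either channel of either array. The 4 LPS values thus fell into separate ranges by genotype, and all of them lay above the 4 basal values.

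The Il10 probe was spotted 10 times on each array, which shows the measurement error within an array. On the first LPS array the 10 spots ranged from 678 to 984.5 (median 827) in the knockout channel and from 115 to 153 (median 138.5) in the wildtype channel. On the second LPS array they ranged from 1316.5 to 2004.5 (median 1644.75) in the knockout channel and from 235.5 to 365 (median 302.5) in the wildtype channel. These are intensities before dye normalisation, and the knockout and wildtype spots did not overlap on either array. On the basal arrays the spot medians were 61.5 and 61 in the knockout channel and 42 and 43.75 in the wildtype channel, close to the local background. On the first basal array 3 of the 10 wildtype spots and 0 knockout spots were well above background, and on the second 0 in either channel. A probe counted as well above background where most of its spots were. After normalisation the spot log2 ratios of knockout over wildtype ran from 1.76 to 2.02 on the first LPS array and from 1.81 to 1.99 on the second. The 10 spots share the labelled RNA of their array and are not replicates of a condition.

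**Figure D2:**
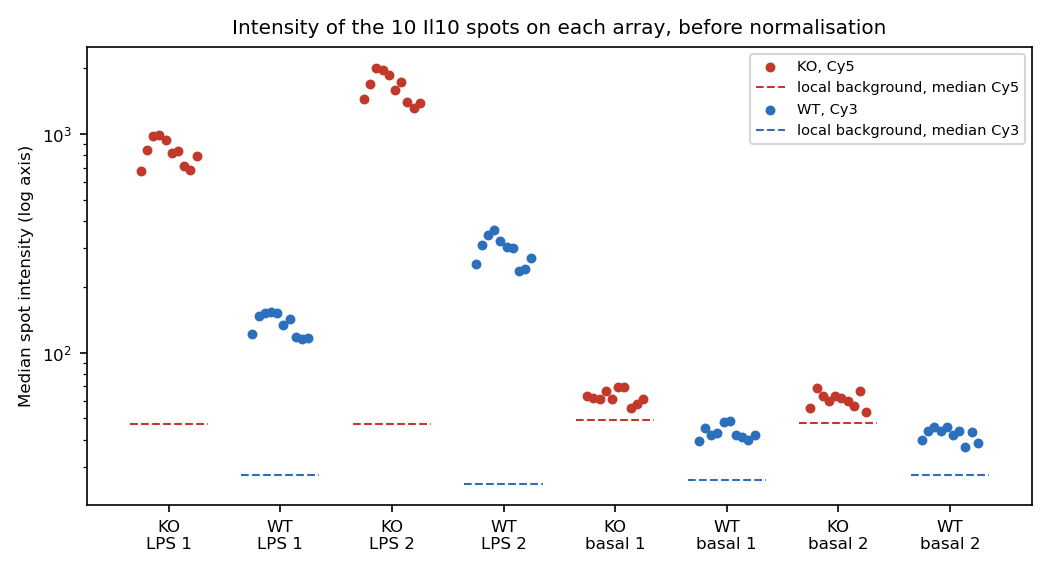
Median intensity before normalisation (log axis) of the 10 Il10 spots in the knockout (KO, Cy5) and wildtype (WT, Cy3) channel of each array, with the median local background of those spots as dashed lines. Knockout spots lie between 678 and 2004.5 on the LPS arrays and wildtype spots between 115 and 365, and the basal spots of both channels lie near the background.

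The log2 ratio of knockout over wildtype for Il10 was 1.90 and 1.91 on the LPS arrays, a mean of 1.91 ± 0.066 (SE, n = 2, limma adjusted p = 4.89e-05). The spread behind this SE was estimated from all 4 arrays together, and Il10 was at background on the 2 basal ones. On the basal arrays the measured ratios were -0.0011 and 0.026. With neither channel well above background they give no fold. The difference between LPS and basal ratios was 1.90 ± 0.093 (limma adjusted p = 0.0018) and sets the LPS ratio against a background-level ratio. It therefore cannot show whether the knockout effect on Il10 differs between conditions. By size the ratio under LPS ranked 40th from the highest of 23567 genes. With either LPS array left out, the difference was 1.89 to 1.90 from the remaining one and its adjusted p was 0.051 or 0.069, and with the scanner's processed signals the adjusted p was 0.096.

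Within each genotype LPS raised Il10. It rose at least 16.4-fold in knockout cells (limma adjusted p = 0.0022) and at least 4.40-fold in wildtype cells (adjusted p = 0.0078), bounds because the basal signal was at background. By size of the rise, taken at these bounds, Il10 ranked 157th in knockout cells and 644th in wildtype cells. The wildtype rise had an adjusted p of 0.0503 with the second basal array left out.

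Across the group, knockout and wildtype were compared in each condition. Under LPS 2 of 10 genes were higher in the knockout, Il10 and Nfil3, and 0 were lower (limma, adjusted p under 0.05), while 12.4% of all genes passed (7.17% higher, 5.23% lower). The median log2 ratio was 0.22 over the 10 genes and -0.00075 over all genes. At basal state 0 of 10 passed in limma, against 4.87% of all genes (3.37% higher, 1.5% lower), with medians of 0.061 and 0.0024. In the difference of the knockout effect, LPS minus basal, 1 of 10 passed, against 0.403% of all genes (0.28% higher, 0.123% lower). It was Il10, whose basal ratio is one of background signals. The ratios moved with centring: with each array centred on its median in place of loess, 4 of 10 were higher under LPS (Il10, Nfil3, Sbno2 and Bcl3) and 1 was higher at basal state (Bcl3), and over all genes the split of higher to lower calls was 4632 to 859 under LPS and 3812 to 647 at basal state, against 1690 to 1232 and 795 to 353 after loess.

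**Figure D3:**
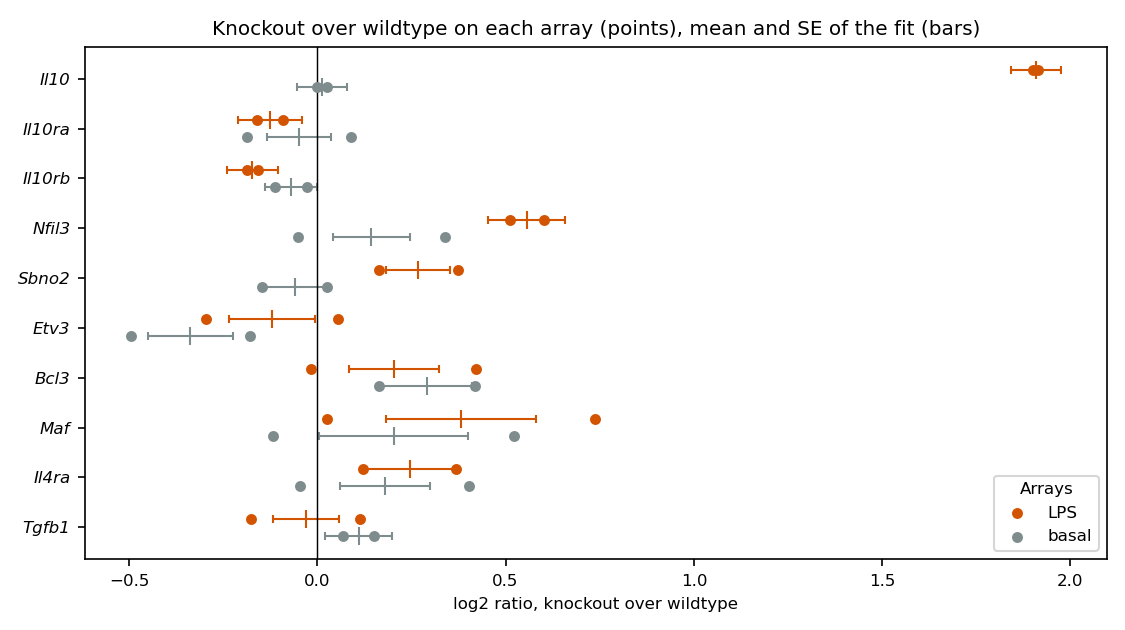
Log2 ratio of knockout over wildtype (x axis) of the 10 genes on each array (points) with the mean and SE of the limma fit (bars), LPS arrays above basal arrays within each gene. Il10 under LPS lies near 1.91, Nfil3 under LPS between 0.51 and 0.60, and the other points lie between -0.49 and 0.74.

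Of the receptor chains, Il10ra encodes the ligand-binding chain. Its level was 13.37 and 13.34 in knockout LPS samples and 13.53 and 13.43 in wildtype LPS samples, against 12.22 and 11.83 in knockout basal and 12.13 and 12.02 in wildtype basal samples. LPS raised it by 1.33 ± 0.16 in knockout cells (log2, SE, limma adjusted p = 0.0051) and by 1.40 ± 0.10 in wildtype cells (adjusted p = 0.0012). Its ratio of knockout over wildtype was -0.13 ± 0.086 under LPS (adjusted p = 0.38) and -0.048 ± 0.086 at basal state (adjusted p = 0.80). LPS and basal levels did not overlap in either genotype, whereas those of the genotypes overlapped at basal state.

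Il10rb encodes the second chain, which the receptors of other cytokines of the family also use. Its level was 11.64 and 11.91 in knockout LPS samples and 11.80 and 12.10 in wildtype LPS samples, against 11.29 and 11.01 in knockout basal and 11.40 and 11.03 in wildtype basal samples. The rise with LPS was 0.63 ± 0.16 in knockout cells (limma adjusted p = 0.036) and 0.73 ± 0.18 in wildtype cells (adjusted p = 0.030), the smallest of the rises that passed in this group. Neither call held with the second LPS array or the second basal array left out (adjusted p from 0.087 to 0.18), and the knockout call did not hold with the first basal array left out (0.77, adjusted p = 0.075) or with processed signals (0.64, adjusted p = 0.055). The ratio of knockout over wildtype was -0.17 ± 0.068 under LPS (adjusted p = 0.15) and 0.012 with median centring.

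Bcl3 encodes an atypical IkappaB protein that binds NF-kappaB p50 and p52 homodimers in the nucleus. Its level was 14.46 and 14.95 in knockout LPS samples and 14.47 and 14.53 in wildtype LPS samples, against 11.91 and 11.72 in knockout basal and 11.75 and 11.30 in wildtype basal samples. LPS and basal levels were far apart in both genotypes. LPS raised Bcl3 by 2.89 ± 0.20 in knockout cells (log2, SE, limma adjusted p = 0.0015) and by 2.98 ± 0.17 in wildtype cells (adjusted p = 0.00084). The ratio between genotypes was 0.20 ± 0.12 under LPS (adjusted p = 0.31) and 0.29 ± 0.12 at basal state (adjusted p = 0.24). Median centring gave 0.62 (adjusted p = 0.0039) and 0.49 (adjusted p = 0.014) for these ratios.

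Nfil3 encodes a basic leucine zipper repressor that acts on Il12b in macrophages and also regulates Il10 in T cells. Its level was 12.95 and 13.23 in knockout LPS samples, against 12.44 and 12.63 in wildtype LPS samples, so the genotypes did not overlap. At basal state it was 11.99 and 11.62 in knockout and 11.65 and 11.67 in wildtype samples, which overlapped. The ratio under LPS was 0.51 and 0.60 on the 2 arrays, a mean of 0.56 ± 0.10 (SE from the fit to all 4 arrays, limma adjusted p = 0.019), or 1.47-fold. At basal state it was 0.34 and -0.051 (mean 0.14 ± 0.10, adjusted p = 0.50), and the difference between conditions did not pass (0.41 ± 0.14, adjusted p = 0.38). The call under LPS was lost with the scanner's processed signals (0.61, adjusted p = 0.071) and with either LPS array left out (adjusted p = 0.15 and 0.17). LPS raised Nfil3 by 1.28 ± 0.18 in knockout cells (adjusted p = 0.0076) and by 0.87 ± 0.11 in wildtype cells (adjusted p = 0.0045).

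Sbno2, strawberry notch homologue 2, encodes a helicase-like co-regulator that IL-10 induces through STAT3, and the STAT palindromes lay in windows of this gene. Its level was 10.48 and 10.86 in knockout LPS samples and 10.31 and 10.49 in wildtype LPS samples, against 9.23 and 9.11 in knockout basal and 9.20 and 9.26 in wildtype basal samples. LPS raised it by 1.499 ± 0.16 in knockout cells (limma adjusted p = 0.0040) and by 1.17 ± 0.11 in wildtype cells (adjusted p = 0.0020). Its ratios were 0.16 and 0.37 on the LPS arrays, a mean of 0.27 ± 0.085 that did not pass (adjusted p = 0.091, and 0.016 with median centring). At basal state the mean ratio was -0.060 ± 0.085 (adjusted p = 0.74).

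Etv3 encodes an ETS-family repressor. Its level was 13.76 and 13.92 in knockout LPS samples and 14.06 and 13.86 in wildtype LPS samples, against 12.21 and 12.08 in knockout basal and 12.39 and 12.58 in wildtype basal samples. It rose with LPS by 1.69 ± 0.12 in knockout cells (limma adjusted p = 0.0015) and by 1.48 ± 0.13 in wildtype cells (adjusted p = 0.0017). At basal state both ratios were below 0, at -0.18 and -0.49, and their mean of -0.34 ± 0.11 did not pass (adjusted p = 0.17). Under LPS they were -0.30 and 0.055.

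Maf encodes c-MAF, a transcription factor that activates Il10 in macrophages and T cells. Its level was 10.06 and 9.48 in knockout LPS samples and 9.32 and 9.46 in wildtype LPS samples, against 9.54 and 8.12 in knockout basal and 9.01 and 8.24 in wildtype basal samples. Its ratios of knockout over wildtype were 0.74 and 0.025 on the LPS arrays and 0.52 and -0.12 on the basal arrays, so the 2 arrays of a condition lay far apart. The mean ratio was 0.38 ± 0.20 under LPS (limma adjusted p = 0.26) and 0.20 ± 0.20 at basal state (adjusted p = 0.63). The change with LPS was 0.94 ± 0.52 in knockout cells (adjusted p = 0.21) and 0.76 ± 0.27 in wildtype cells (adjusted p = 0.083), and both passed with the first basal array left out (1.65 and 1.15, adjusted p = 0.044 and 0.020).

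Il4ra and Tgfb1 belong to neighbouring anti-inflammatory pathways, the receptor of interleukin-4 and interleukin-13 and transforming growth factor beta 1. Il4ra had levels of 10.47 and 11.31 in knockout LPS samples and 10.35 and 10.94 in wildtype LPS samples, against 11.30 and 11.18 in knockout basal and 10.90 and 11.23 in wildtype basal samples, with overlap throughout. Its change with LPS was -0.35 ± 0.30 in knockout cells (limma adjusted p = 0.40) and -0.42 ± 0.24 in wildtype cells (adjusted p = 0.23), and its second probe gave -0.16 and -0.21. The ratio of knockout over wildtype under LPS was 0.25 ± 0.12 (adjusted p = 0.23), and 0.23 by the second probe. The knockout change with LPS was 0.071 with the first LPS array left out and -0.77 (adjusted p = 0.015) with the second left out.

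Tgfb1, spotted 10 times per array, had levels of 12.23 and 11.47 in knockout LPS samples and 12.12 and 11.65 in wildtype LPS samples, against 12.61 and 12.74 in knockout basal and 12.54 and 12.59 in wildtype basal samples. It was the member lower under LPS in both genotypes without overlap. The fall passed in wildtype cells (-0.68 ± 0.18, limma adjusted p = 0.036) and not in knockout cells (-0.82 ± 0.27, adjusted p = 0.071), and the difference between them was not past the threshold (-0.14 ± 0.12, adjusted p = 0.76). The wildtype call was lost with processed signals (adjusted p = 0.064), with 75th percentile scaling (-0.44, adjusted p = 0.092) and with either basal array left out (0.13 and 0.15). The knockout fall passed with the first LPS array left out (-1.20, adjusted p = 0.0052). The ratio between genotypes was -0.031 ± 0.088 under LPS and 0.11 ± 0.088 at basal state.

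Most of the 10 genes rose with LPS. In knockout cells 7 of 10 rose and 0 fell, while 41.8% of all genes passed (19.1% higher, 22.7% lower). In wildtype cells the same 7 rose and Tgfb1 fell, while 41.8% passed there too (18.3% higher, 23.5% lower). The 7 were Il10, Il10ra, Il10rb, Nfil3, Sbno2, Etv3 and Bcl3. The median change of the 10 genes was 1.30 in knockout cells and 1.02 in wildtype cells, against -0.013 and -0.0054 over all genes. Both genotypes were measured on the same arrays, so their responses share array effects and are given side by side. With 75th percentile scaling the median of all genes was 0.35 in knockout and 0.37 in wildtype cells, and the split of higher to lower calls was 10661 to 4206 and 11496 to 4255, against 4496 to 5360 and 4324 to 5529. The same 7 genes rose under that scaling too. Summed dendritic cell and granulocyte markers were higher and summed macrophage markers lower in the LPS samples of both genotypes. Of 6 macrophage markers, Cd14 and Mertk passed as higher and 3 as lower in each genotype. Of 5 dendritic cell markers, Clec9a passed as lower in both, while 4 passed as higher in knockout and 3 in wildtype cells. The part of these cells in the changes of the 10 genes was not tested.

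**Figure D4:**
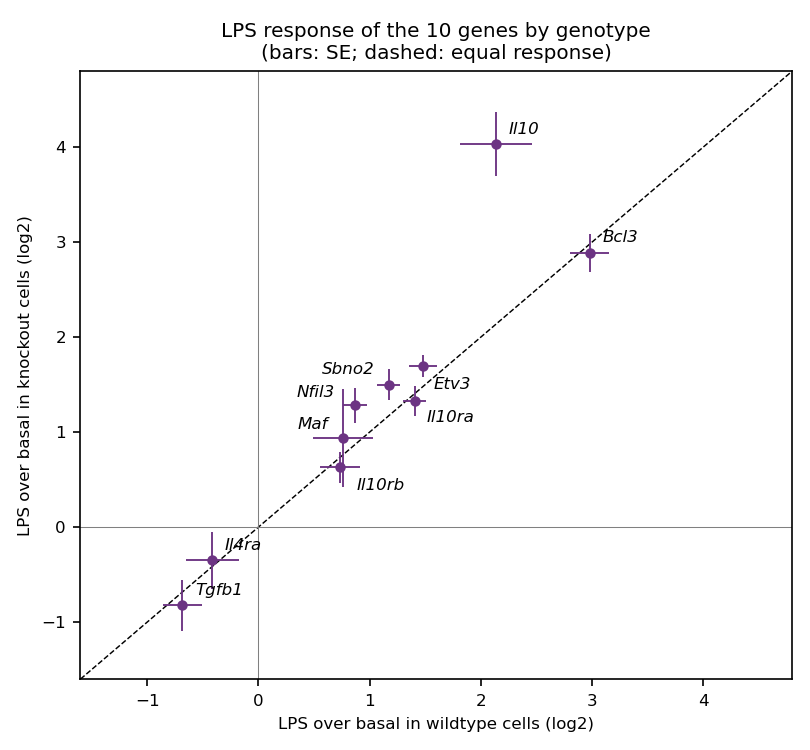
Log2 change of LPS over basal in knockout cells (y axis) against that in wildtype cells (x axis) for the 10 genes; bars are SE and the dashed line marks equal responses. Il10, shown at its bounds, lies above the line at 4.03 against 2.14, and the other genes lie closer to it.

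The genes whose pattern over the 8 channel levels was most like that of Il10 were sought among 13623 genes well above background in both channels of both LPS arrays. Likeness was the root mean square difference of the log2 levels, each gene centred on its own mean. The closest was Il17rd, the gene of a membrane protein of the interleukin-17 receptor family, at 0.21. It too was not well above background in basal samples, and its ratio under LPS was 1.48 and 1.78 (mean 1.63). Cdkn2b, a cyclin-dependent kinase inhibitor gene, followed at 0.39, then 9130008F23Rik at 0.39, H2ap at 0.42, the eosinophil chemoattractant gene Ccl24 at 0.42 and Serping1, which encodes the C1 inhibitor, at 0.43. Their LPS ratios ran from 0.76 for Serping1 to 1.59 for Ccl24. At basal state the mean ratios were 0.43 for 9130008F23Rik and 0.41 for Cdkn2b, and ran from -0.042 to 0.11 for the others. The 2 basal arrays gave 0.35 and -0.30 for Ccl24. These genes were chosen for following Il10 over the same levels, so their ratios are given with no test.

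Genes around the group were described by list, with all p-values adjusted over all 23567 genes. Receptor signalling, the kinases, STATs and negative regulators after the IL-10 receptor, had 16 measured genes. LPS raised 8 and lowered 2 of them in knockout cells and raised 10 and lowered 2 in wildtype cells, against 19.1% higher and 22.7% lower of all genes in knockout and 18.3% and 23.5% in wildtype cells. With 75th percentile scaling 14 were higher and 1 lower in each genotype. Inpp5d, which encodes the phosphatase SHIP1, fell by 4.39 ± 0.26 in knockout cells and by 4.01 ± 0.29 in wildtype cells (log2, SE, limma adjusted p = 0.0012 and 0.0013), and the feedback inhibitor gene Socs1 rose by 2.89 ± 0.27 and 3.07 ± 0.31. Stat3, chosen for its role after its values were seen, rose by 1.95 ± 0.17 in knockout and 1.70 ± 0.11 in wildtype cells. Under LPS 2 of the 16 were lower in the knockout (5.23% of all genes), Ptpn6, which encodes SHP-1 (-0.41 ± 0.093, adjusted p = 0.039), and Inpp5d (-0.33 ± 0.076, adjusted p = 0.036), but with median centring 3 were higher and 0 lower, and with processed signals 0 passed. At basal state Stat5b was higher (0.40 ± 0.071, adjusted p = 0.026), with a mean of 0.20 by its other probe.

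Of the IL-10 family cytokines 5 of 7 were measured. Under LPS 2 of the 5, Il10 and Il19, were higher in the knockout and 0 were lower (7.17% and 5.23% of all genes). Il19 had a ratio of 0.75 ± 0.12 (limma adjusted p = 0.012), but 0.13 by its other probe and 0.17 with processed signals. By the brighter of its probes it rose with LPS at least 4.58-fold in knockout cells and at least 2.93-fold in wildtype cells. The other probe gave smaller rises of 0.89 and 0.75 (log2), so these bounds hold for 1 probe. Among 11 class II cytokine receptors, the family of Il10ra and Il10rb, 1 passed under LPS, against 12.4% of all genes. It was the tissue factor gene F3 (-0.40 ± 0.067, adjusted p = 0.015), with -0.18 by its other probe. The F3 call was lost with processed signals (adjusted p = 0.063). With LPS the interferon gamma receptor gene Ifngr1 fell by 2.70 ± 0.10 in knockout and fell by 2.57 ± 0.21 in wildtype cells, and Il20rb rose by 1.70 ± 0.18 and 1.60 ± 0.14.

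**Figure D5:**
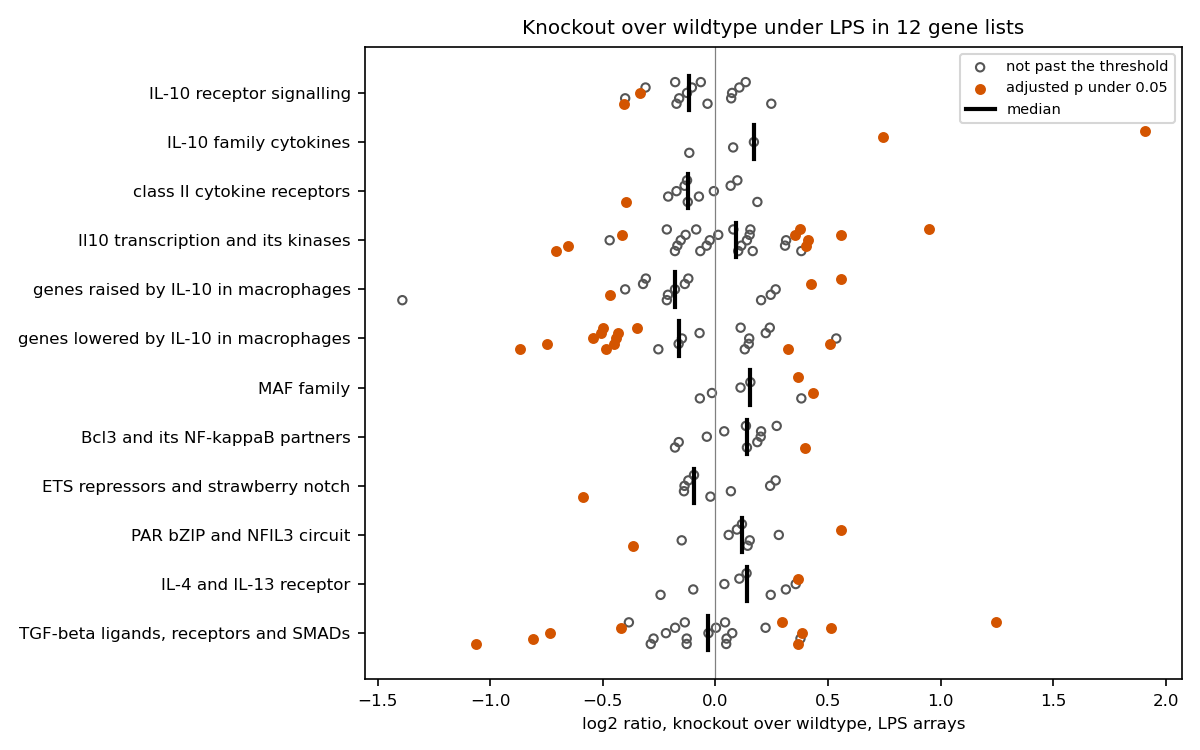
Log2 ratio of knockout over wildtype under LPS (x axis) of the measured genes of 12 lists; filled points passed the limma threshold, open points did not, and the black line is the list's median. Il10, at 1.91, is the point farthest to the right.

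Factors and kinases that act on Il10 transcription gave 30 measured genes, of which 6 were higher and 3 lower in the knockout under LPS (7.17% and 5.23% of all genes), with a median of 0.090. Dusp1, which encodes a phosphatase of p38 and JNK kinases, was higher by 0.95 ± 0.18 (log2, SE, limma adjusted p = 0.019). Mapk14, which encodes p38 alpha, was lower (-0.71 ± 0.066, adjusted p = 0.0019), and -0.31 by its other probe. At basal state 1 of the 30 passed, against 4.87% of all genes, the salt-inducible kinase gene Sik1 (-1.002 ± 0.15, adjusted p = 0.015). That basal call was lost with processed signals, with which 0 of the 30 passed, while median centring gave 5 higher and 1 lower. With processed signals 0 were higher and 1 lower under LPS, and with median centring 11 were higher and 1 lower. Map3k8, which encodes TPL2, rose with LPS by 2.75 ± 0.21 in knockout and 2.61 ± 0.20 in wildtype cells.

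Among 15 measured genes that IL-10 is known to raise in macrophages, 2 were higher in the knockout under LPS, Nfil3 and Zfp36, which encodes the mRNA-destabilising protein tristetraprolin (0.42 ± 0.089, limma adjusted p = 0.029). The Fc receptor gene Fcgr1 was lower (-0.47 ± 0.089, adjusted p = 0.021), and the list's median was -0.18, or 0.061 with median centring. Thus 3 of 15 passed, against 12.4% of all genes. Neither the Zfp36 nor the Fcgr1 call held with processed signals (adjusted p = 0.11 and 0.099), with which 0 of the 15 passed, and with median centring 4 were higher and 0 lower. LPS raised 9 of the 15 in each genotype (19.1% of all genes in knockout and 18.3% in wildtype cells). It lowered 2 in knockout and 1 in wildtype cells (22.7% and 23.5% of all genes). Il1rn, the interleukin-1 receptor antagonist gene, rose by 4.16 ± 0.10 in knockout and 3.72 ± 0.24 in wildtype cells.

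Among 23 measured genes that IL-10 is known to lower, 10 were lower and 2 higher in the knockout under LPS after loess (5.23% and 7.17% of all genes), whereas with median centring 4 were lower and 8 higher, and with processed signals 3 were lower and 0 higher. The median was -0.16 after loess and 0.13 with median centring. Il1a was lower by the most (-0.87 ± 0.095, limma adjusted p = 0.0030), then Il1b (-0.75 ± 0.072, adjusted p = 0.0020). The 2 higher genes were H2-Ab1, a class II histocompatibility gene (0.51 ± 0.081, adjusted p = 0.012), and the costimulatory receptor gene Cd40 (0.32 ± 0.080, adjusted p = 0.047). Both were also higher at basal state (0.41 ± 0.081 and 0.51 ± 0.080), where the chemokine gene Ccl5 (-0.79 ± 0.14) and Il18 (-0.62 ± 0.091) were lower. None of these 4 basal calls held with processed signals, with which 0 of the 23 passed. LPS raised 20 of the 23 and lowered 1 in each genotype, against 19.1% higher and 22.7% lower of all genes in knockout and 18.3% and 23.5% in wildtype cells. The 1 lowered gene was the costimulatory ligand gene Cd80 (-0.68 ± 0.10 in knockout and -0.75 ± 0.14 in wildtype cells), named after its values were seen. Its other probe gave 3.13 and 3.30, and with 75th percentile scaling 21 of the 23 rose and 0 fell in each genotype. Granulocyte and dendritic cell markers moved in the same samples, and their part in these counts was not tested.

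Partners of individual members were measured as well. All 11 genes of the list of Bcl3 and its NF-kappaB partners rose with LPS in both genotypes (19.1% and 18.3% of all genes), led by Nfkbiz, the gene of another atypical IkappaB protein, by 4.41 ± 0.34 in knockout and 4.01 ± 0.34 in wildtype cells (log2, SE, limma adjusted p = 0.0019 and 0.0017). Nfkbiz was also the 1 gene of the list higher in the knockout under LPS (0.40 ± 0.066, adjusted p = 0.013), against 7.17% of all genes. That call was lost with processed signals (adjusted p = 0.071), where 0 of 11 passed, while with median centring 9 of 11 were higher. Mafa, a MAF family gene, was higher in the knockout under LPS (0.43 ± 0.072, limma adjusted p = 0.013), a call that was lost with processed signals.

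For Etv3 and Sbno2, the list of ETS repressors and strawberry notch genes held 9 measured genes. The repressor gene Etv6 rose with LPS by 2.27 ± 0.11 in knockout and 2.14 ± 0.10 in wildtype cells, and Elk3 was lower in the knockout under LPS (-0.59 ± 0.073, limma adjusted p = 0.0047), with -0.50 and -0.031 by its other probes. Nfil3 competes with PAR bZIP proteins for the same sites in the circadian circuit. Of the 9 genes of this list, Nfil3 was the 1 that rose with LPS in each genotype (19.1% of all genes in knockout and 18.3% in wildtype cells). Under 75th percentile scaling 2 rose in knockout and 3 in wildtype cells. The PAR bZIP gene Tef fell by 2.30 ± 0.34 in knockout and by 2.58 ± 0.25 in wildtype cells. Per1 was the 1 gene of this list lower in the knockout under LPS (-0.37 ± 0.068, adjusted p = 0.019), against 5.23% of all genes. Median centring (adjusted p = 0.053) and processed signals (0.052) did not keep the Per1 call.

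Around Il4ra, the common gamma chain gene Il2rg rose with LPS by 1.96 ± 0.15 in knockout and 1.84 ± 0.15 in wildtype cells. Stat6, the transcription factor of the receptor, was the 1 of 9 higher in the knockout under LPS, against 7.17% of all genes. Its ratio was 0.37 ± 0.075 (limma adjusted p = 0.026), with -0.12 and 0.080 by its other probes. That call was lost with processed signals (adjusted p = 0.071), where 0 of the 9 were higher and 1 lower, and with median centring 4 were higher. Around Tgfb1, 25 genes were measured, of which 5 were higher and 4 lower in the knockout under LPS (7.17% and 5.23% of all genes) and 0 higher and 3 lower at basal state (3.37% and 1.5%). With processed signals the counts were 1 and 3 under LPS and 2 and 1 at basal state, and with median centring they were 6 and 4 under LPS and 3 and 1 at basal state. The inhibitory SMAD gene Smad6 was at least 2.37-fold higher in the knockout under LPS (adjusted p = 0.00092), since its wildtype signal was not well above background, and Tgfbi, a gene induced by TGF-beta, was lower (-1.06 ± 0.10, adjusted p = 0.0021). The endoglin gene Eng was lower in the knockout at basal state (-0.58 ± 0.074, adjusted p = 0.0078), as was Thbs1, which encodes thrombospondin-1 (-0.51 ± 0.091, adjusted p = 0.028). Both were also lower under LPS (-0.74 ± 0.074 and -0.81 ± 0.091, limma adjusted p = 0.0023 and 0.0033). The receptor genes Tgfbr1 and Tgfbr2 changed with LPS by -2.88 ± 0.20 and -2.93 ± 0.27 in knockout cells and by -2.95 ± 0.24 and -2.73 ± 0.20 in wildtype cells.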

How the data were processed

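Per the file headers, the deposited scanner files hold the spot intensity of both channels with local background, made with Agilent Feature Extraction 11.5.1.1, while the submitters' processing notes give version 9.3.2.1. The deposited log10 ratios were not used. The authors also deposited a value table of log2 ratios, knockout over wildtype, which equals the ratio of processed signals up to an offset of -0.0020 to 0.0051 per array (within 0.001 for 100% of the probes spotted once). Its column medians are 0.016, 0.034, 0.029 and 0.031, and no source used here says how the offset was set.

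The 4 arrays carry 43020 probe spots for 39429 probes and lie on 1 slide read in 1 scan, so no batch could be fitted. Between 62.1% and 65.0% of probe spots were well above background in the knockout channel and 68.3% to 71.0% in the wildtype channel, and 207 to 255 outlier spots per array were left out. The number of arrays limits the precision. Median intensities were corrected with normexp (offset 50), loess was run within arrays and Aquantile between them (limma 3.58.1, R 4.3.3). Probes with a channel well above background on at least 2 of the 4 arrays were kept (28632), and the brightest stood for its gene. Symbols came from a RefSeq table of GRCm38.p6 through unversioned accessions (27508 probes matched), while the headers name mm9, so array probes are given no coordinates.

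Comparisons were fitted with lmFit and eBayes, two-sided, with Benjamini-Hochberg adjustment over 23567 genes and a threshold of 0.05: knockout against wildtype in each condition and their difference from log2 ratios, and LPS against basal in each channel. SE is that of the moderated fit. Where a group was at background on every array, a fold is a bound ("at least"), from the higher of the lowest signal well above background and the probe's own; a dye effect in such a bound was not tested. No replicate block was used. Named genes were the 10 members, the 2 genes with the largest change past the threshold in each list and comparison, the 6 nearest to Il10, and Cdk5r1; genes named for lists with few calls or as background to a member were added after their values were seen. Not every gene this rule names is reported here. The members and lists were chosen with earlier results of these data known. The fits were tested on simulated data. Alternatives were processed signals, median centring, 75th percentile scaling, another normexp offset, other probe filters and summaries, the value table, a replicate block and each array left out.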

Additional observations from a re-analysis of the deposited data

Results flagged for a closer look

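The test of the LPS minus basal difference in ratio (limma, adjusted over all genes) was passed by 95 of 23567 genes. Il10 and Cdk5r1 were among them. For Il10 the difference, LPS minus basal, was 1.90 ± 0.093 on the log2 scale (adjusted p = 0.0018), with ratios of knockout over wildtype of 1.90 and 1.91 under LPS and -0.0011 and 0.026 at basal state. Its basal signal was not well above background in either channel, so the basal ratio has no fold of its own. The size of the difference is set against background, and its test cannot show whether the knockout effect on Il10 differs between conditions. The call was lost with processed signals (adjusted p = 0.096), with the deposited value table (0.088) and with either LPS array left out (0.051 and 0.069).

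For Cdk5r1, the targeted gene, the difference was -1.94 ± 0.13 (adjusted p = 0.0043), with ratios of -2.55 and -2.29 under LPS and -0.37 and -0.59 at basal state. Its probe was well above background in both channels of all 4 arrays. LPS raised Cdk5r1 by 1.97 ± 0.21 in wildtype cells, while its change in knockout cells was 0.027 ± 0.29.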

How the results depend on the processing

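Of 695 values of single members under the alternatives, 632 kept direction and side of the threshold, 22 lost and 13 gained a call, and 28 changed sign, none of them among the 18 values that had passed. The cause of these changes was not tested. Of the 2 genes called in knockout against wildtype under LPS, 1 was called with processed signals, with the value table, with either LPS array left out (range of all arrays left out 1 to 2), and where every channel had to be well above background, a filter under which Il10 was not tested; median centring called 4. At basal state 1 was called with median centring and 1 with the crossed block, against 0. In the difference of the knockout effect 0 were called, against 1, with processed signals (Il10 adjusted p = 0.096), with the value table (0.088), under that filter and with either LPS array left out (range 0 to 1). In LPS against basal in wildtype cells, leaving out arrays gave 5 to 8 calls, against 8, and 5 came without the second basal array. Median centring turned the basal ratios of Il10 to -0.12, Il10ra to 0.17, Il10rb to 0.12 and Sbno2 to 0.082, the LPS ratios of Il10ra to 0.17, Il10rb to 0.012, Etv3 to 0.22 and Tgfb1 to 0.16, and the differences of Il10ra to 0.0031 and Bcl3 to 0.12. With arrays left out, basal ratios ranged from -0.051 to 0.34 for Nfil3, -0.12 to 0.52 for Maf, -0.045 to 0.40 for Il4ra, -0.0011 to 0.026 for Il10, -0.19 to 0.089 for Il10ra and -0.15 to 0.026 for Sbno2. LPS ratios ranged from -0.30 to 0.055 for Etv3, -0.016 to 0.42 for Bcl3 and -0.18 to 0.11 for Tgfb1. Differences ranged from -0.21 to 0.059 for Il10ra, -0.31 to 0.13 for Bcl3, -0.18 to 0.54 for Maf, -0.16 to 0.29 for Il4ra and -0.28 to 0.0039 for Tgfb1, and the LPS change of Il4ra in knockout cells from -0.77 to 0.071. Over all genes, the 2922 calls under LPS became 413 and 528 with an LPS array left out, 1694 with processed signals, 1739 with the value table and 5491 with median centring. The 1148 basal calls became 745, 771 and 4459 under the last 3 of these and 704 under the strict filter, and 706 and 743 with a basal array left out. The 95 calls of the difference became 7, 8 and 228, then 19 under the strict filter, 4 and 7 with an LPS array left out, 197 with the first basal array left out, and 58 with a replicate block. The calls of LPS against basal with a basal array left out were 4082 and 4805, against 9856, in knockout cells and 5292 and 5706, against 9853, in wildtype cells, and 75th percentile scaling gave 14867 and 15751. The arrays share only a replicate number. With that number as a block, 2160 genes passed under LPS, 927 at basal state, 8036 for LPS against basal in knockout cells and 8147 in wildtype cells. Under this block Maf passed under LPS (0.38, adjusted p = 0.039), Il10rb did not pass in knockout (0.63, adjusted p = 0.075) or wildtype cells (0.73, adjusted p = 0.063), nor Tgfb1 in wildtype cells (-0.68, adjusted p = 0.051), and no other call of a member changed. Deviations of same-numbered arrays had weak negative correlations over genes (r = -0.16 for ratios, -0.19 for wildtype and -0.083 for knockout levels). A crossed block, chosen after seeing the data, gave 4395 calls under LPS, 1842 at basal state and 367 in the difference. Signal over background limits Il10, which has no measured basal level.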
